A study of Caenorhabditis elegans with 4 samples.

Results

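The X chromosome of Caenorhabditis elegans held 585 of the 2836 peaks that the submitters called for the tagged transcription factor NHR-11 in late embryos. The peaks were chosen by position alone, as every peak of the series-wide list that lies on X. The same chromosome held 88 of 328 peaks in the list of ChIP replicate 1 and 59 of 258 in that of ChIP replicate 2. The other 2251 series-wide peaks lay on the 5 autosomes and serve as the comparison.

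NHR-11 belongs to the nuclear hormone receptors, a family that is greatly expanded in nematodes. Its members bind DNA through a zinc finger domain, and many carry a domain for small lipophilic ligands. The X chromosome sets sex in C. elegans. Hermaphrodites have a pair of X chromosomes and males a single one, and in hermaphrodites a dosage compensation complex loads along X in the embryo and lowers its transcription. Genes expressed in the germline are scarce on X, while genes of somatic tissues such as muscle and neurons are well represented there.

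Chromatin immunoprecipitation followed by sequencing (ChIP-seq) used 2 ChIP samples and 2 input samples, each group with replicates 1 and 2. Both groups came from hermaphrodite late embryos of strain OP305, grown at 20 °C. The strain carries the mutation unc119(ed3) and the transgene wgIs305, which holds nhr-11 fused to TY1, EGFP and FLAG, together with unc119. Bombardment introduced the transgene, and the strain was outcrossed 3 times. The ChIP samples were collected with anti-GFP antibodies after crosslinking in 2% formaldehyde, so they report the tagged protein. The input samples are DNA from the same kind of lysate without immunoprecipitation. They have no peak list here and entered no comparison. Nothing in the labels tells if replicates 1 and 2 were separate cultures, so differences between the replicate lists may be technical.

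Each peak has a start, an end and 1 significance value on build WormBase WS220. The files do not say whether that value is a p-value or a q-value. Below it is called the score, and the lower it is, the stronger the peak. Medians are given as −log10 of the score, where larger means stronger. Rank is the order of the deposited peak numbers within a list. It is not strictly the order of scores: in the series-wide list the score fell between successive numbers 1447 times. On X, scores still ran from 8.92e-59 at rank 2 to 0.000984 at rank 2827. Read depth and fold enrichment are unknown. The genome and annotation of WS220 were not used here, so regions are named by position, without genes or bases.

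X carried more peaks per Mb than the pooled autosomes, but that difference rested on chromosome IV. The series-wide list had 33.1 peaks per Mb on X, against 27.3 on the autosomes. The rate ratio was 1.21 (exact 95% interval 1.11 to 1.33; exact binomial test, p = 4.31e-05, and 8.61e-05 after Benjamini-Hochberg adjustment over the 2 tests planned on X). With chromosome IV left out, the autosomes had 31.1 peaks per Mb and the ratio of X to them was 1.06 (0.968 to 1.17, exact binomial p = 0.189). Neighbouring peaks are not independent, so these intervals are too narrow and these p-values too small to that extent.

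Set against each autosome by itself, X was denser than IV and II and did not pass the test against the other 3. The ratio of X was 2.54 to IV, with 13.0 peaks per Mb (2.17 to 2.97, adjusted exact p = 1.96e-35). It was 1.30 to II, with 25.5 peaks per Mb (1.14 to 1.48, adjusted exact p = 0.000192). Against V the ratio of X was 1.10 (0.979 to 1.23, adjusted exact p = 0.178), against I 0.974 (0.863 to 1.10, adjusted exact p = 0.672) and against III 0.929 (0.822 to 1.05, adjusted exact p = 0.289). Adjustment was by the Benjamini-Hochberg method over the 5 autosomes.

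The replicate lists gave X a larger share. In replicate 1, X had 4.98 peaks per Mb against 2.91 on the autosomes, a ratio of 1.71 (1.32 to 2.19, exact p = 3.34e-05). Leaving out chromosome IV lowered that ratio to 1.41 (1.09 to 1.81, exact p = 0.00741), which still passed the test. In replicate 2, X had 3.34 peaks per Mb against 2.41, a ratio of 1.38 (1.02 to 1.86, exact p = 0.0333). Without chromosome IV the ratio in replicate 2 was 1.17 (0.860 to 1.58, exact p = 0.275). X was the densest chromosome of replicate 1, and in replicate 2 chromosome III was denser, at 3.63 peaks per Mb. Set against single autosomes with the same adjustment, X of replicate 1 passed the test against I, II and IV only. Its ratio was 1.06 to III (0.757 to 1.48, adjusted exact p = 0.807) and 1.25 to V (0.918 to 1.71, adjusted exact p = 0.182). In replicate 2, X passed against IV only.

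**Figure D1:**
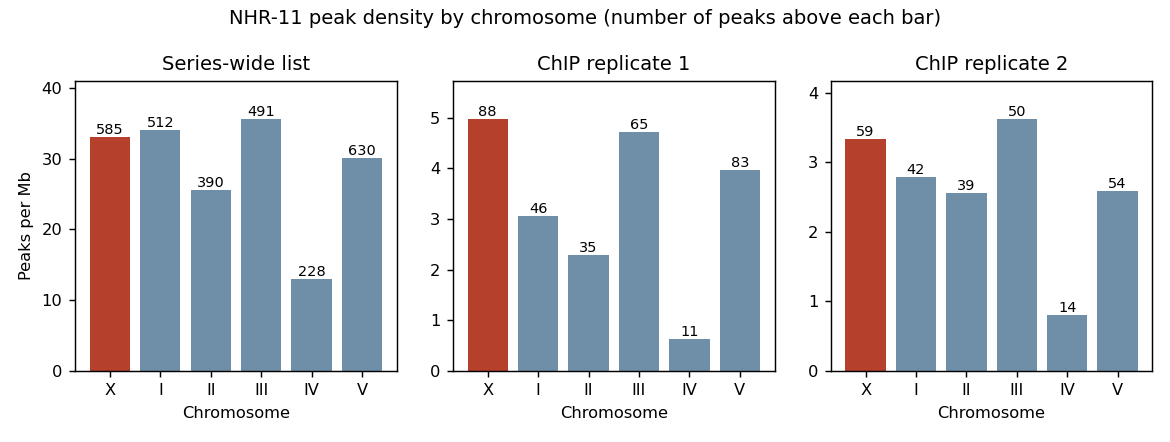
Peaks per Mb on X (red) and on each autosome (blue) in the series-wide list, the list of ChIP replicate 1 and the list of ChIP replicate 2, each with its own axis starting at 0 and the number of peaks above each bar. X stands at 33.1, 4.98 and 3.34 peaks per Mb in the 3 panels, and chromosome IV is the lowest in each.

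Among strong peaks, those with a score below 1e-10, the higher number per Mb on X remained without chromosome IV. X held 29 of them and the autosomes 70, where 3.49% of all series-wide peaks were this strong. That is 4.96% of the X peaks (95% Wilson interval 3.47 to 7.03) and 3.11% of the autosomal peaks (2.47 to 3.91), a difference of 1.85 percentage points (0.161 to 4.02). Per Mb, X had 1.64 strong peaks against 0.848 on the autosomes, a ratio of 1.93 (1.21 to 3.02), and the ratio was 1.81 (1.12 to 2.86) without IV. The single autosomes ran from 0.622 strong peaks per Mb on V to 1.31 on III. As a share of each chromosome's own peaks, strong peaks made up 4.82% on IV, close to X (difference 0.133 points, -3.77 to 3.09). The intervals of the difference between X and I, II or III also included 0, and that to V did not (2.89 points, 0.830 to 5.13). X supplied 29.3% of the strong peaks (21.2 to 38.9), beside 20.6% of all peaks and 17.6% of the span. In replicate 1 it supplied 8 of 27 strong peaks (29.6%, 15.9 to 48.5), beside 26.8% of all peaks of that list. In replicate 2 it supplied 11 of 34 (32.4%, 19.1 to 49.2), beside 22.9% of all peaks of that list. Both intervals include the share of X in the list.

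The share of X was highest at the top of the list and lay near 20% below it. X held 17 of the first 50 series-wide peaks (34%, 22.4 to 47.8) and 12 of the next 50 (24%). It held 31 of the peaks ranked 101 to 250 (20.7%) and 51 of those ranked 251 to 500 (20.4%). Beyond rank 500 its share ran between 19% and 22.2%. In replicate 1 the share of X followed no such order, with 16 of the first 50 peaks, 13 of the next 50, 18 of those ranked 101 to 150 and 23.0% of the rest. In replicate 2 the corresponding values were 17, 15 and 7 of 50 peaks, and 18.5% of the rest.

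The 10 best-scored X peaks were spread over most of the chromosome and were called in both replicates. The first, X:11605611-11606392, was 782 bp wide with a score of 8.92e-59. It was rank 5 in replicate 1 (663 bp, score 6.88e-28) and rank 7 in replicate 2 (718 bp, 5.13e-33). The second, X:14525379-14526212, was 834 bp wide with a score of 9.24e-51, and was rank 9 in replicate 1 (7.54e-25) and rank 10 in replicate 2 (2.42e-27). For both regions the series-wide score lay far below each replicate score.

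Agreement between the replicates varied over the rest of this set. The third, X:9187129-9188651, and the ninth, X:14908196-14909507, had edges within 10 bp of each other in the replicates. X:2996568-2997391 (824 bp, 3.58e-33) was called at 782 bp in replicate 1 and 491 bp in replicate 2. X:11093641-11094323 (683 bp, 2.28e-31) was called at 421 bp in replicate 1 (rank 19, 2.80e-14) and 570 bp in replicate 2 (rank 21, 2.78e-15). X:16928717-16930405, the widest X peak at 1689 bp (7.15e-30), was called at 421 bp in replicate 1 (rank 64, 1.27e-06) and 927 bp in replicate 2 (rank 19, 1.77e-18). Its series-wide extent was thus wider than both calls. X:4208863-4209614 (752 bp, 2.54e-23) and X:8035787-8036909 (1123 bp, 2.34e-22) were ranks 38 and 29 in replicate 1 and ranks 35 and 41 in replicate 2. The leftmost of the 10, X:113841-114220 (380 bp, 3.70e-20), was called at 219 bp in replicate 1 and 378 bp in replicate 2.

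Gaps between strong X peaks ranged widely. Those between strong autosomal peaks were not measured, and strong peaks were fewer per Mb there (0.848 against 1.64 on X). The median gap between the 29 was 546548 bp, and the longest was 1738929 bp, from X:6296858 to X:8035786. The shortest was 224 bp, between X:16928717-16930405 and X:16930630-16931774. Of 17 full bins of 1 Mb, 15 held a strong peak, and the bin from 11 to 12 Mb held the most, with 5. The bins from 7 to 8 Mb and from 15 to 16 Mb held none.

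All 29 strong X peaks were in a replicate list, and 26 were in both. The corresponding numbers were 66 and 58 of the 70 strong autosomal peaks. The shares in both lists, 89.7% on X (73.6 to 96.4) and 82.9% on the autosomes (72.4 to 89.9), differed by 6.80 points, with an interval from -10.7 to 19.3 that includes 0. The 3 strong X peaks missing from replicate 2, named after their values were seen, were X:1388688-1389840 (6.77e-15), X:12693086-12694006 (1.30e-12) and X:8404367-8404775 (3.03e-11). All 3 were in replicate 1, at ranks 106, 54 and 102.

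Over all ranks, 37 X peaks (6.32%, 4.62 to 8.60) overlapped a peak of both replicate lists by at least 1 bp, where 4.69% of all series-wide peaks did. On the autosomes 96 did (4.26%, 3.51 to 5.18). The difference of 2.06 points had a 95% Newcombe interval of 0.128 to 4.46. Against each autosome by itself the interval included 0. The largest of these differences was to I (2.61 points, -0.0212 to 5.24) and the smallest to V (1.72 points, -0.851 to 4.38). With midpoints within 200 bp as the criterion the difference was 1.81 points and its interval reached -0.0380. Counted in either replicate list, the share was 17.4% on X (102 peaks) and 14.3% on the autosomes (322 peaks), beside 15.0% of all series-wide peaks, a difference of 3.13 points (-0.101 to 6.70). Per autosome the share in either list ran from 6.14% on IV to 17.3% on III.

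Each replicate list was also compared by itself. Replicate 1 held 83 X peaks (14.2%) and 227 autosomal peaks (10.1%), a difference of 4.10 points (1.20 to 7.38). Against single autosomes, the interval included 0 for III (2.17 points, -1.93 to 6.18) and V (1.49 points, -2.35 to 5.36). It excluded 0 for I, II and IV, where IV had the lowest share, 4.82%. Replicate 2 held 56 X peaks (9.57%) and 191 autosomal peaks (8.49%), a difference of 1.09 points (-1.37 to 3.95). The 2 differences to the pooled autosomes were not tested against each other, and their intervals overlap. Replicate 1 alone held 46 X peaks and 131 autosomal peaks, a difference of 2.04 points (-0.139 to 4.67). Replicate 2 alone held 19 X peaks (3.25%) and 95 autosomal peaks (4.22%), a difference in the other direction of -0.972 points (-2.45 to 0.951).

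Within ranks, X peaks and autosomal peaks were held at overlapping shares. Both replicate lists held 16 of the 17 X peaks among the first 50, and all 33 autosomal ones. They held 10 of 12 X peaks (83.3%, 55.2 to 95.3) and 25 of 38 autosomal peaks (65.8%, 49.9 to 78.8) at ranks 51 to 100. At ranks 101 to 250 they held 8 of 31 X peaks (25.8%) and 29 of 119 autosomal peaks (24.4%). From rank 251 on, both lists held 3 X peaks and 9 autosomal peaks in all.

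**Figure D2:**
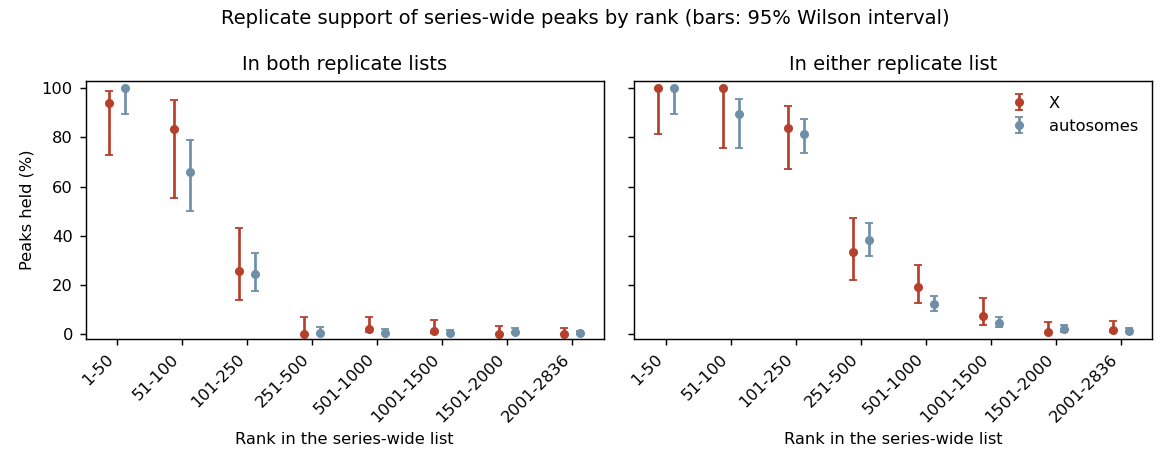
Share of series-wide peaks that overlapped a peak of both replicate lists (left) or of either list (right), by rank in the series-wide list, for X (red) and the autosomes (blue), with 95% Wilson intervals. The X and autosomal intervals overlap at every rank bin, and support falls from the first 50 peaks to the later ones on both.

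The X peaks held by neither replicate list were mostly weak. There were 483 of them, with a median −log10 score of 3.54 and a median width of 191 bp. The 37 held by both had medians of 12.8 and 514 bp, and the 65 held by 1 list had medians of 5.73 and 301 bp. The best-scored peaks without replicate support were X:1989825-1990266 (442 bp, 2.95e-10, rank 116), X:16211243-16212001 (759 bp, 2.55e-09) and X:4606062-4606405 (344 bp, 7.30e-08). They were followed by X:1977593-1977788 (8.56e-08) and X:4957146-4957528 (2.19e-07).

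Scores of the 38 X regions that matched one to one between the replicates ran in a similar order. Spearman's rho was 0.826 and Pearson's r of the −log10 scores 0.968, as a description across regions of 1 pair of libraries. The 98 matched autosomal regions had a rho of 0.626 (97 regions with a score above 0). The score was lower in replicate 2 for 27 of the 38 X regions and for 61 of the autosomal regions. The called edges differed by a median of 51 bp at the start and 35.5 bp at the end on X, and by 47 bp and 20 bp on the autosomes. Of the 31777 bp that replicate 1 covered on X, 47.5% was covered in replicate 2 as well, and of the 24802 bp of replicate 2 60.8% was covered in replicate 1.

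A small set of X regions had nearly the same edges in both replicates and differed from the rest in how the series-wide list scored them. Both edges agreed within 10 bp for 9 of the 38 X regions. For 3 of the 9 the series-wide score was below both replicate scores, for 4 it was above at least 1 of them, and 2 were absent from the series-wide list. For the other 29 regions, 28 had a series-wide score below both replicate scores and 1 above, with none absent. On the autosomes the counts were 3, 9 and 4 of 16 regions with edges within 10 bp, and 76, 6 and 0 of the other 82. This split was chosen after the values were seen. Scores of separately called lists share no known scale, and the cause of the pattern was not tested.

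The strongest region of this set was X:9187129-9188651, at 1.40e-41 in the series-wide list, 5.11e-50 in replicate 1 and 2.85e-67 in replicate 2. Its edges differed by at most 4 bp between the replicates. X:14908196-14909507 had 1.76e-20 in the series-wide list, 8.43e-28 in replicate 1 and 2.13e-35 in replicate 2, with edges within 8 bp. Another case was a row of 3 peaks within 2141 bp. X:11886219-11886594 scored 6.85e-20, X:11887059-11887612 scored 3.73e-11 and X:11887846-11888359 scored 9.62e-05, at rank 1115. All 3 were called in both replicates, and the last had the same start and end in each. Its replicate scores were 0.000335 in replicate 1 and 2.51e-06 in replicate 2.

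The narrowest X region called in both replicates, X:1754051-1754082, was 32 bp in the series-wide list (5.89e-05) and 29 bp in each replicate list. The 2 regions of the set that the series-wide list lacked were X:293241-293626 and X:11787102-11787545, as placed in replicate 1. Region X:293241-293626 had scores of 3.30e-06 in replicate 1 and 1.36e-07 in replicate 2, and the nearest series-wide peak was 5563 bp away. Region X:11787102-11787545 had 0.000121 in replicate 1 and 8.40e-06 in replicate 2, and the nearest series-wide peak was 1100 bp away. The series-wide peak numbers run to 2869 and skip 33 values, all at 476 or above. Whether these regions belong to skipped numbers cannot be told. The other X peaks of a replicate list that the series-wide list lacked were 3 of replicate 1 and 1 of replicate 2. Those of replicate 1 were X:3435544-3435738, X:14301650-14301998 and X:17402616-17403015, and that of replicate 2 was X:7077368-7077932. Each was in 1 replicate list, with a score between 3.81e-05 and 0.000402.

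**Figure D3:**
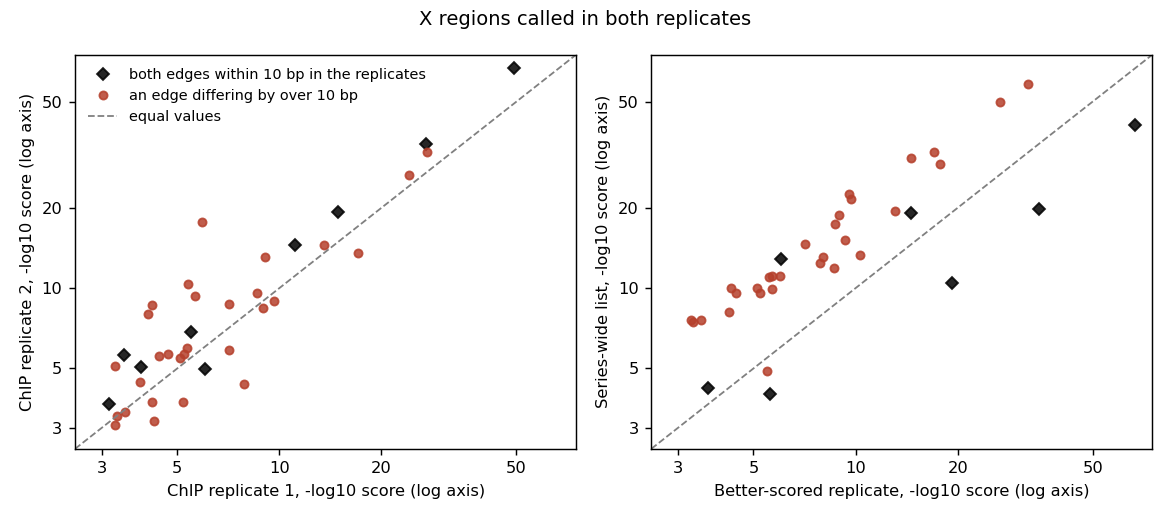
Scores of X regions called in both replicates, as −log10 on log axes: replicate 2 against replicate 1 for 38 regions (left), and the series-wide list against the better-scored replicate for the 36 regions that the series-wide list holds (right). Black diamonds mark regions whose edges agreed within 10 bp; 4 of them lie under the dashed line of equal values on the right, together with 1 of the 29 others.

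Along X, the densest stretch was the right end. The last 0.680 Mb, beyond 17 Mb, held 48 peaks, or 70.6 per Mb, against 31.6 per Mb over the first 17 Mb. The median gap between neighbours was 7360 bp there and 19980.5 bp in the first 17 Mb. Within the end, peaks were concentrated beyond 17.4 Mb, where 10 peaks lay between 17.4 and 17.5 Mb, 13 between 17.5 and 17.6 Mb and 12 in the last 80329 bp. The 4 bins of 0.1 Mb before that held 1, 6, 3 and 3.

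The peaks at the right end had a median −log10 score of 3.96 and a median width of 194 bp, against 3.66 and 202 bp in the first 17 Mb. None of the 48 was strong, against 29 of 537 in the first 17 Mb. Either replicate list held 11 of the 48 (22.9%), against 91 of the 537 (16.9%). The best-scored were X:17513510-17513810 (1.07e-10) and X:17479465-17479974 (2.69e-10), and these 2 were the ones held by both replicate lists. Next were X:17472598-17473032 (4.06e-09), held by replicate 2, and X:17527855-17528243 (1.25e-08), held by replicate 1. This stretch held 11 of the 88 X peaks of replicate 1 (16.2 per Mb) and 3 of the 59 of replicate 2 (4.41 per Mb). Over the first 17 Mb the replicates had 4.53 and 3.29 peaks per Mb. The difference between the replicates at the right end was not tested.

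Compared over windows of the same length, 680329 bp, the right end of X held more peaks than any of the other 11 chromosome ends, and the left end of X the fewest. The 10 autosomal ends ran from 21 peaks at the right end of IV to 43 at the right end of III, and the left end of X held 15. These are counts, and whole chromosomes differ in density. The right end of X had 70.6 peaks per Mb against 33.1 over all of X. On IV the left end had 35.3 and the right end 30.9, against 13.0 over the chromosome. Relative to its own chromosome, each end of IV was thus more crowded than the right end of X. In windows of 280329 bp the right end of X held 35 peaks, the right end of V 32 and the left end of X 2. The windows were chosen after the counts at the right end of X were seen, so no test is given. Leaving out X beyond 17 Mb, the ratio of X to the autosomes was 1.16 in the series-wide list (1.05 to 1.27, exact p = 0.00253), 1.56 in replicate 1 (1.19 to 2.02, exact p = 0.00127) and 1.37 in replicate 2 (exact p = 0.0454, though the interval of 0.997 to 1.85 includes 1). Without IV as well, it was 1.02 in the series-wide list (exact p = 0.751), and the ratio of 1.29 in replicate 1 no longer passed the test (0.980 to 1.67, exact p = 0.0571).

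**Figure D4:**
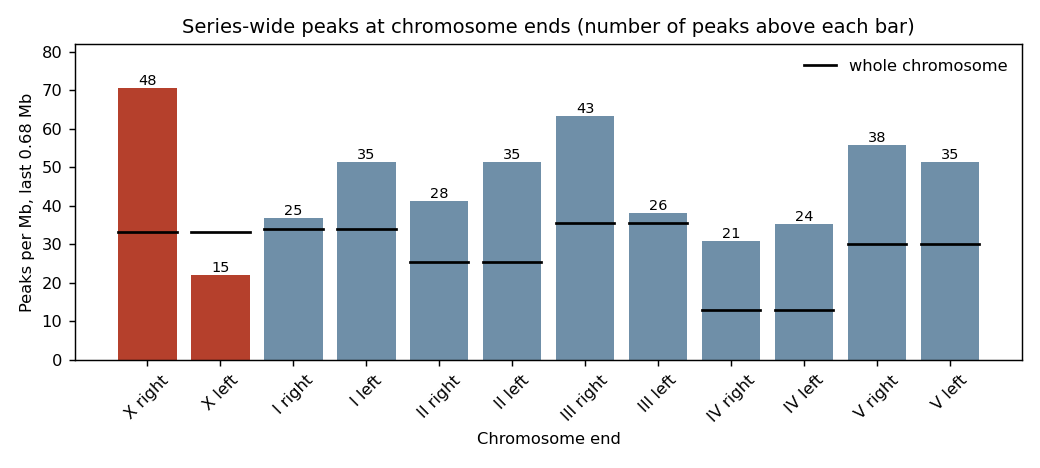
Series-wide peaks per Mb in the last 680329 bp at both ends of X (red) and of each autosome (blue), with the number of peaks above each bar and the density of the whole chromosome as a black line. The right end of X holds 48 peaks and its left end 15, the highest and the lowest of the 12 ends.

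Cut into 3 segments of equal length, X held fewer peaks in the central segment than an even spread would give, by a small margin. That segment held 171 of the 585 peaks (29.2%, 25.7 to 33.0; exact binomial test against 33.3%, p = 0.0353, also after Benjamini-Hochberg adjustment over the 2 planned tests). The left segment held 191 (32.6%) and the right segment 223 (38.1%). On the pooled autosomes the central segments held 34.0%, so X was 4.80 points lower (interval of the difference -8.86 to -0.527). That difference was not taken against single autosomes or without the right end of X. Once X beyond 17 Mb was left out, the central segment of the remainder held 30.5% and did not pass the test (exact p = 0.184). The call was also lost when peaks within 2000 bp were counted once (29.8%, exact p = 0.0822) and in the best-scored 50% (30.5%, exact p = 0.321).

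Over the first 17 Mb, peaks were spread along X with no empty stretch at the scale of 1 Mb. The 17 full bins held between 18 and 45 series-wide peaks, with a median of 31. The most were in the bins from 16 to 17 Mb (45), 1 to 2 Mb (43) and 12 to 13 Mb (36). The fewest were in the bins from 6 to 7 Mb (18), 15 to 16 Mb (26) and 13 to 14 Mb (27). The bin from 6 to 7 Mb was also the lowest, or level with the lowest, in both replicate lists, with 1 peak in each. The bin from 11 to 12 Mb, average in the series-wide list with 30 peaks, was the highest full bin in replicate 1 (9 peaks) and in replicate 2 (8 peaks). Each full bin held at least 1 peak called in both replicates, while 4 bins of III and 13 of IV held none.

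The variance of the bin counts divided by their mean, which averages 1 for independent and even placement, was 1.24 on X (0.689 to 2.88). It was 1.11 on III, 1.74 on I, 2.26 on V, 2.26 on IV and 2.63 on II. These bins start at the left end and leave out the last 0.680 Mb of X. Counted from the right end, the ratio was 3.94 on X, where the first bin held 69 peaks, and ran from 1.48 on I to 5.51 on II among the autosomes. The low value thus covers only the first 17 Mb. In bins of 0.5 Mb from the left end, which reach further into the right end, it was 1.53 (1.0007 to 2.63).

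**Figure D5:**
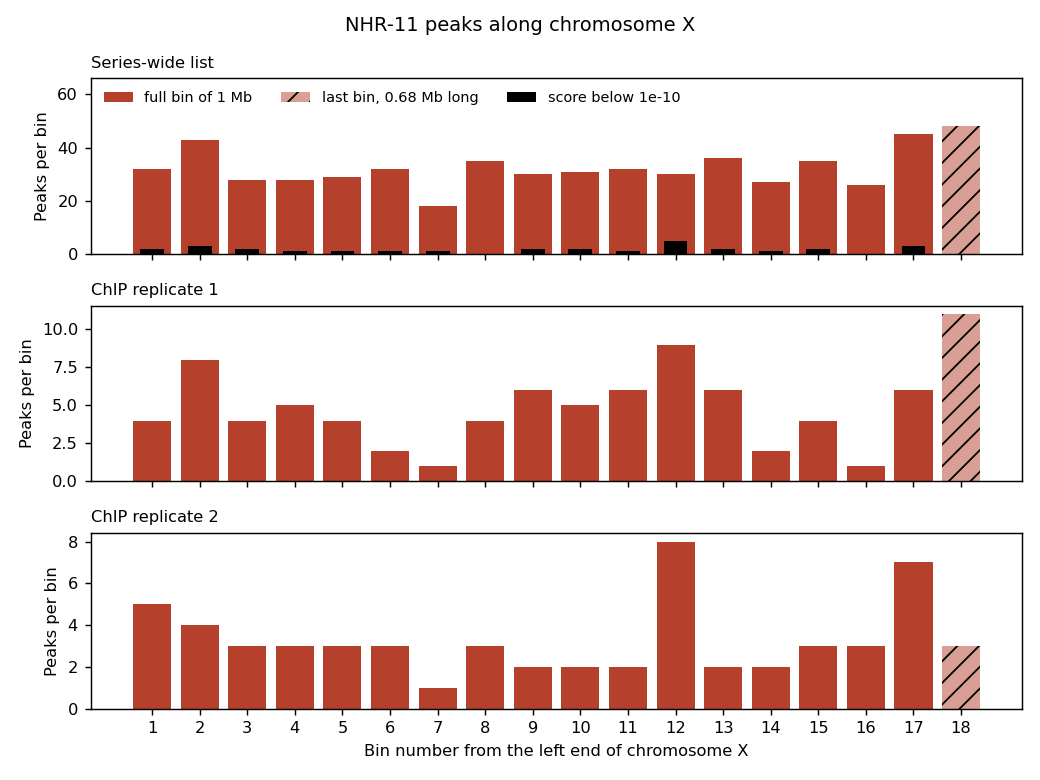
Number of peaks in bins of 1 Mb from the left end of X in the series-wide list (top, with peaks of a score below 1e-10 in black), the list of ChIP replicate 1 (middle) and the list of ChIP replicate 2 (bottom); the hatched last bin is 0.680 Mb long. Series-wide counts run from 18 to 45 in the full bins and reach 48 in the shorter last bin, where replicate 1 has 11 peaks and replicate 2 has 3.

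Neighbouring X peaks were separated by a median of 18449 bp, with an interquartile range of 6818 to 41545 bp. The autosomal median was 19677.5 bp. The coefficient of variation of the gaps was 1.08 on X, 1.09 on I and III and up to 1.56 on II. The 3 longest gaps on X were 176701 bp (X:15879568-16056268), 173673 bp (X:5474068-5647740) and 164814 bp (X:13349557-13514370). The longest gap of each autosome was longer, from 207132 bp on III to 887151 bp on IV. These differences in spacing were not tested.

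Tandem groups, in which neighbours lay under 2000 bp apart, took up similar shares of X and autosomal peaks. Gaps under 2000 bp made up 8.22% of the 584 gaps on X (6.26 to 10.7) and 9.17% of the 2246 on the autosomes (8.05 to 10.4), a difference of -0.953 points (-3.29 to 1.80). They joined 91 X peaks (15.6%) into 43 groups, of which 38 were pairs and 5 were rows of 3. The autosomes had 163 groups with 369 peaks (16.4%) and rows of up to 6. Like X, chromosome I had no row longer than 3. The longest X group spanned 3763 bp, and the longest autosomal group 16545 bp on IV. No replicate peak touched 26 of the 43 X groups, while 9 held a peak called in both replicates and 6 held a strong peak. On the autosomes these counts were 108, 24 and 19 of 163 groups. Of the strong X peaks, 8 of 29 stood in a group (27.6%, 14.7 to 45.7), and of the other X peaks 83 of 556 (14.9%, 12.2 to 18.1). On the autosomes it was 23 of 70 strong peaks (32.9%) and 15.9% of the others.

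The 5 rows of 3 differed in strength. One was the row at X:11886219-11888359, called in both replicates throughout. At X:1641849-1644215 a strong peak on the right (1.55e-13, in both replicates) had a neighbour at 1.74e-06 and another at 0.000524, neither of them in a replicate list. The rows at X:9208632-9212394, X:12168311-12170264 and X:736900-740141 held only peaks that neither replicate list had. The best score among them was 4.01e-06, in the row at X:9208632-9212394.

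X peaks were slightly narrower than those of the pooled autosomes, and broad peaks were few. The median width was 201 bp on X (196 to 214) and 226 bp on the autosomes (218 to 234), a difference of -25 bp (-34.4 to -9.74). Without peaks under 50 bp it was -18.5 bp and its interval included 0 (-37.1 to 0.638). The medians of the single autosomes ran from 210 bp on V to 266 bp on II. The interval of X overlapped those of V (200 to 221), III (200 to 227) and I (206 to 237). It lay below those of IV (228 to 284) and II (247 to 319). In the best-scored 50% of the list the difference was 1 bp (-56.5 to 32.3). In the replicate lists its interval included 0, with medians of 303.5 bp on X and 319.5 bp on the autosomes in replicate 1, and 374 bp and 327 bp in replicate 2. Beyond the 3 widest X peaks, each of which was called in both replicates, the next were X:949459-950635 (1177 bp, 1.53e-06), called in neither, and X:1388688-1389840 (1153 bp).

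No X peak reached 2000 bp (0 of 585). Taking 3 counts as the one-sided limit for a count of 0, this allows a share of up to 0.513%. That limit is not a Wilson interval and covers counting error only. On the autosomes 12 of 2251 peaks reached 2000 bp (0.533%), 8 of them on II and 3 on IV, and the difference was not tested. Chromosomes I and V had none of that width either. At 1000 bp or more, X had 8 peaks (1.37%) and the autosomes 50 (2.22%). Peaks covered 0.845% of the X span and 0.826% of the autosomal span. Without IV the autosomes were covered to 0.909%, more than X, and I, II and III each exceeded X as well.

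Very narrow peaks made up a larger share on X than on the pooled autosomes, a difference that depended on the limit. Peaks under 50 bp numbered 71 on X (12.1%, 9.73 to 15.0) and 199 on the autosomes (8.84%, 7.74 to 10.1), beside 9.52% of the whole list, a difference of 3.30 points (0.591 to 6.40). Against single autosomes, the interval excluded 0 for II and included it for the other 4. Under 10 bp the shares were 3.76% on X and 2.62% on the autosomes, a difference of 1.14 points (-0.328 to 3.10), with IV at 3.95%. Of the 71, 59 ranked after 1000, the best stood at rank 406, and 1 was in a replicate list. Of these narrow peaks, 32 of 71 lay in the central segment of X (45.1%), against 139 of 514 other X peaks (27.0%). That split was chosen after the values were seen, so no test of it is given. Without peaks under 50 bp the ratio of X to the autosomes was 1.17 (1.06 to 1.29, exact p = 0.00188).

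As a whole, X peaks were no stronger than autosomal peaks in the series-wide list. The median −log10 score was 3.70 on X (3.59 to 3.81) and 3.71 on the autosomes (3.66 to 3.76). In the replicate lists, which hold far fewer peaks, X medians were higher than those of the pooled autosomes. They were 4.08 on X and 3.70 on the autosomes in replicate 1, a difference of 0.383 (0.0717 to 0.761). In replicate 2 they were 5.11 and 4.06, a difference of 1.04 (0.225 to 1.95). Chromosome IV had higher medians than X in both, at 8.25 in replicate 1 (11 peaks) and 7.59 in replicate 2 (14 peaks). The medians of the other autosomes were below that of X in both lists. Wider X peaks tended to score better, with a Spearman rho of 0.486 over the 585 peaks and 0.406 over the autosomal peaks. Width and score come from the same calls, so this is a description only.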

How the data were processed

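The submitters deposited 3 peak lists, which give a p-value or q-value for each peak. Per the file headers, peaks were called with PeakSeq on WormBase WS220. Its version, settings and controls, the aligner, and how the series-wide list arose were not given in the sources used here. That list may share reads with the replicate lists, and support by them is then not independent. Depth is unknown.

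Members, limits and comparisons were chosen with earlier results of these data known. A chromosome's span is counted to its last called base over the 3 lists. Peak rates were compared by two-sided exact binomial tests. Shares carry 95% Wilson intervals, differences of shares Newcombe intervals, and medians distribution-free intervals combined in the same way for differences; all cover counting error only. Named regions are the 10 best-scored X peaks, the 5 best-scored in neither replicate list, the 5 widest, replicate peaks that the series-wide list lacks (at most the 5 best-scored per list), the largest tandem groups (all 5 of equal size), the fullest and emptiest bins and the longest gaps; others were chosen after their values were seen. Alternatives covered overlap, score, width, counting, chromosome IV, each replicate list and the right end of X. Functions were tested on simulated lists. Python 3.11.15, NumPy 2.4.6, SciPy 1.17.1 and Matplotlib 3.10.9 were used.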

Additional observations from a re-analysis of the deposited data

How the results depend on the processing

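Alternatives that leave out X beyond 17 Mb or count bins from the right end were chosen after seeing the data. Of 60 alternative values, 43 were counted as the same and 17 were not. With a test, the same meant keeping direction and side of the threshold. Without a test, it meant staying in the main interval. Of the 17, 7 lost the call of a test and 2 reversed a difference whose interval excluded 0. The other 8 left the main interval, which need not mean a lost direction. Unless stated, the cause was not tested. The density ratio was 1.06 without IV, and 1.38 to 1.71 in the replicate lists, where it passed the test. The central share lost its call in the best-scored 50% (30.5%), with peaks within 2000 bp counted once (29.8%), in peaks held by both replicates (24.3%), in the replicate lists (22.0% to 29.5%) and without the right end (30.5%); the subsets also hold fewer peaks. The difference in width turned to 1 bp in the best-scored 50% and ran from -16 to 47 bp in the replicate lists. The difference in median −log10 score was 1.71 in peaks held by both replicates and 0.383 to 1.04 in the replicate lists. The difference in shared peaks was 4.59 points in the best-scored 50%, and 1.09 to 4.10 points with 1 replicate list. The difference in short gaps was 2.11 points at 10000 bp. The variance ratio was 0.669 in bins of 2 Mb and 3.94 from the right end. Pearson's r was 0.968 in place of rho. No paired analysis was possible because the inputs, which share their replicate numbers with the ChIP samples, have no peak lists here to pair.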
